A study of Mus musculus with 14 samples.

Results

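Colitis-associated colorectal tumors (CAC tumors) were induced in male C57BL/6J mice by azoxymethane, a carcinogen, at 10 mg/kg, and by 3 cycles of 2.5% dextran sodium sulfate, an agent that injures the colon lining, each given for 7 days with 14 days of recovery. The 4 CAC tumors came from 4 mice and the 5 sporadic tumors from 5 male Apc Min/+ mice, which carry a germline Apc mutation in every tissue. Tumor-free distal colon epithelium served as control, each sample pooling several mice, with 2 pools of 5 mice beside the CAC tumors and 3 pools of 4 mice beside the sporadic tumors. Treatment of the CAC control mice is not stated in the labels. All tumors came from the last part of the large intestine and were whole tissue, whereas the controls were purified epithelium. The CAC arrays form experimental block 1 and the sporadic arrays block 2, so model and block cannot be told apart.

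The probe sets described here are the 200 that varied most among the 4 CAC tumors, out of 22626 on the array without its control probe sets. They were taken from the 9773 probe sets with a geometric mean intensity of 32 or more in the CAC tumors, and selected on the standard deviation (SD) of log2 intensity over the 4 arrays, so that the members are 2.05% of those probe sets. Of the 200, 185 carry 1 gene symbol and stand for 155 genes, 14 carry several symbols and 1 carries none. Because the SD chose them, their differences among the CAC tumors are given as a description, with no test. The highest SD was 6.70, the median of the 200 was 1.62, and the median of all 9773 was 0.25. At the lower end of the ranking, Tubb4a was just inside with an SD of 1.21 and intensities of 11, 78, 46 and 27 in tumors 1 to 4, and Pcolce was just outside with an SD of 1.20 and intensities of 261, 63, 43 and 165.

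A colon tumor grown after repeated colitis is a mixture. Its epithelium can keep some features of absorptive colonocytes and mucus-making goblet cells, and it can take on those of small-intestinal Paneth cells or, near the anus, lie beside stratified squamous epithelium. Its stroma holds fibroblasts, smooth muscle and vessels, and its immune cells include neutrophils, macrophages, mast cells and antibody-producing plasma cells, some of which answer to interferon. In RNA from whole tumors, fewer cells of a type and less RNA per cell cannot be told apart.

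Tumor 1 stood apart from the other tumors. Between tumor 1 and tumors 2, 3 and 4, 801, 1110 and 1030 of the 9773 probe sets differed at least 2-fold, against 322, 431 and 471 in the pairs among tumors 2, 3 and 4. The technical measures of the array did not separate it: the median intensity was 17 on each CAC tumor array, 9752 to 9868 probe sets reached 32, and the log2 ratio of 3' to 5' actin signal was 0.80 in tumor 1 and 0.74 to 0.83 in the others. Epcam, an epithelial adhesion protein chosen after its values were seen, had intensities of 9602, 12105, 10870 and 11503 in tumors 1 to 4. When tumor 1 was left out and the ranking repeated on tumors 2, 3 and 4, 78 of the 200 probe sets were again among the 200 most variable and the SD at rank 200 was 0.85.

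Each probe set was assigned to a pattern by the largest gap between its 4 sorted log2 values. Tumors 2, 3 and 4 lay above the gap and tumor 1 below it for 100 of the 200 probe sets, against 17.6% of all 9773, and tumor 1 alone lay above it for 42, against 12.4%. Tumor 1 was therefore on its own side for 142 of 200, against a background of 30%. Smaller groups were low in tumor 4 alone (12 probe sets, 6%, against 8.5% of all 9773) and high in tumor 4 alone (9, 4.5%, against 8.5%). Others were high in tumors 2 and 3 (8, 4%, against 4.7%), low in tumor 3 alone (7, 3.5%, against 8.2%) and high in tumors 3 and 4 (5, 2.5%, against 4.6%). None of these shares exceeded that over all probe sets. The median member was 12.3-fold higher in its highest than in its lowest CAC tumor.

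**Figure D1:**
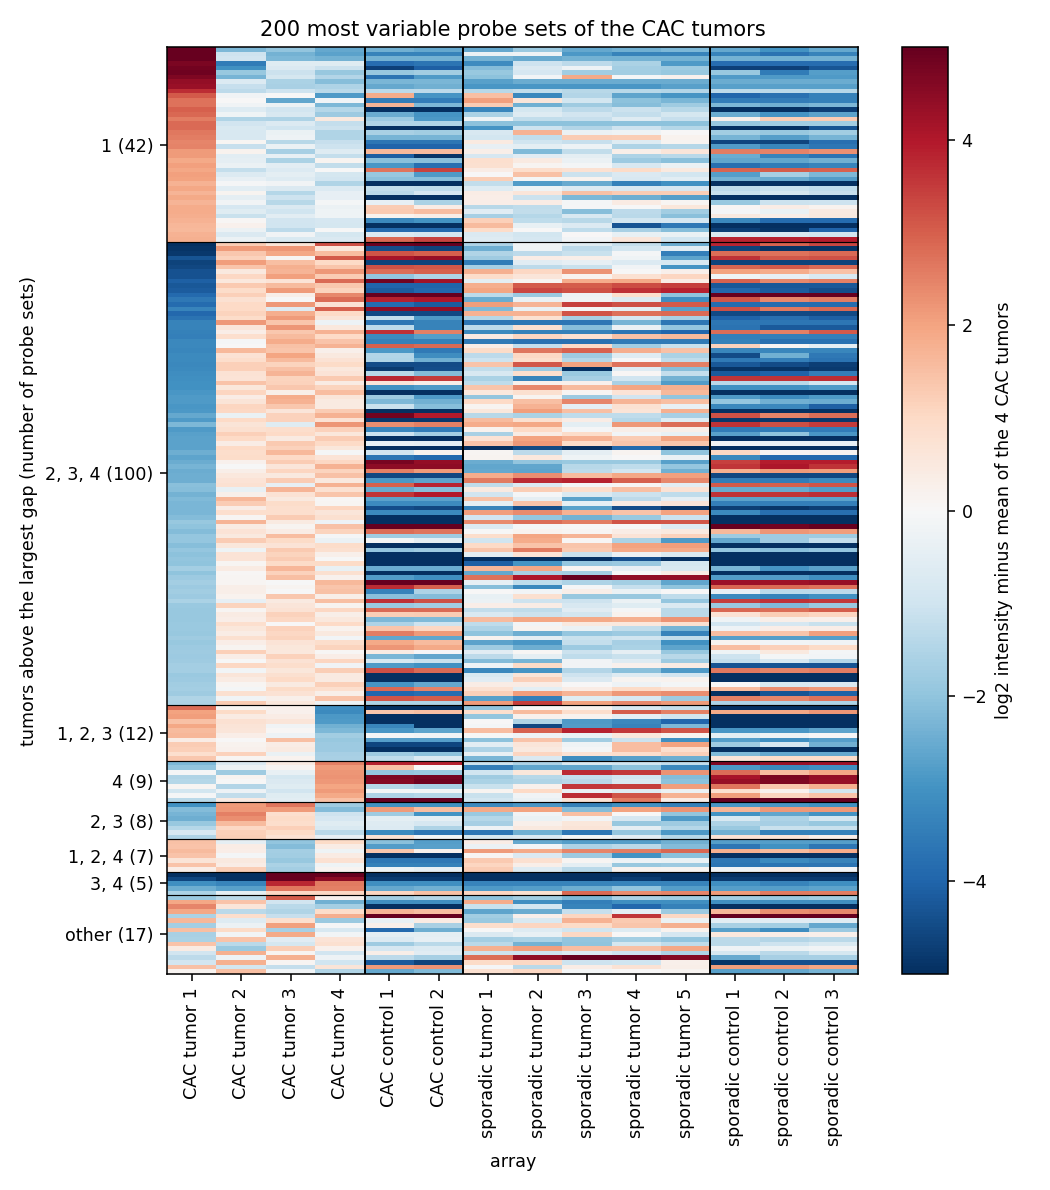
Heat map of the 200 most variable probe sets (rows, ordered by pattern and rank) on the 14 arrays (columns), as log2 intensity minus the mean of the 4 CAC tumors, with colors ending at 5 in either direction. Row blocks give the tumors above the largest gap: 42 probe sets were high in tumor 1 alone, 100 were high in tumors 2, 3 and 4, and the 17 in the last block have less common patterns.

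Genes of stratified squamous epithelium were prominent in the group high in tumor 1, after Ltf and Ppbp, which had its highest SDs. Krt13, a keratin of the upper layers of squamous mucosa, had an intensity of 2467 in tumor 1, against 27, 11 and 10 in tumors 2, 3 and 4, 10 and 10 in the CAC control pools, and 9 to 10 in the sporadic tumors. Krt4, its partner in keratin filaments, had 1259 in tumor 1, against 10, 27 and 18. Krt14, a keratin of the basal layer, had 1454 in tumor 1, against 116, 94 and 68, and 5 in each CAC control pool. Tumor 1 was the highest for each of these keratins, with no other CAC or sporadic tumor within 5-fold of it. Krt6a, a keratin of wounded and fast-renewing epithelium, had 2994 in tumor 1 and 10 to 75 in the other CAC tumors, and its near-identical copy Krt6b may share signal with it. Sprr1a, a protein of the cornified envelope, had 1740 in tumor 1, against 104, 101 and 413, but it was not low in the CAC controls, at 84 and 40.

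The minimum of 32 hides most of this group, since a gene at the floor in 3 tumors has a low geometric mean. Of 32 squamous genes measured, 12 met the minimum and 5 of these were members (41.7%), against 2.44% of all genes. Without the minimum, 19 of the 32 were at least 2-fold higher in tumor 1 than in each other CAC tumor, against 1.95% of all 13084 genes. Krt5, the basal partner of Krt14, had 1866 in tumor 1 and 8 in each of the others, and Krt6b had 3048, against 4, 5 and 4. Those 2 genes were named after their values were seen. The summed intensity of the 32 genes was 24118 in tumor 1, 4658 to 5561 in the other CAC tumors, 3549 and 4808 in the CAC control pools, and 2996 to 4315 in the sporadic tumors. Ivl, Dsc3 and Klk10 of the same list stayed at 6 or 7 in every CAC tumor.

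Some neutrophil products were also high in tumor 1. Of the neutrophil and macrophage list, Csf3r, at 25, 37, 30 and 23 in tumors 1 to 4, and Mpo, at 5 in each, were not. Ltf, lactoferrin of neutrophil granules and glandular secretions, had 5173 in tumor 1, against 10, 12 and 8 in the other CAC tumors, 9 and 8 in the CAC control pools, and 8 to 13 in the sporadic tumors. Ppbp, the precursor of a platelet chemokine that draws neutrophils, had 3434 in tumor 1, against 25, 10 and 8. S100a8, a calcium-binding protein that neutrophils hold in bulk, had 6193, 961, 1019 and 102 in tumors 1 to 4, and its partner S100a9 had 7022, 2235, 2167 and 225. For both S100 genes the largest gap set tumor 4 below the others, although tumor 1 was the highest. Il1r2, a decoy receptor for interleukin-1, had 231 in tumor 1, against 21, 29 and 13, and Alox5ap, needed to make leukotrienes, had 284, against 33, 22 and 11.

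The chemokines Cxcl1 and Cxcl2, which attract neutrophils, followed the S100 pattern. Cxcl2 had 483, 244, 290 and 60 in tumors 1 to 4, against 5 in both CAC control pools. Cxcl1 had 345, 161, 186 and 40, against 6 in both pools. Tumor 4 was thus the lowest for these genes, and also for Lrg1, an acute-phase glycoprotein (1320, 816, 732 and 67), and Reg3g, an antimicrobial lectin (624, 259, 145 and 31).

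Several macrophage genes of the same list were low in tumor 1. Csf1r, the receptor that macrophages need to survive, had 12 in tumor 1, against 141, 148 and 118 in tumors 2, 3 and 4. C1qc, a complement subunit made by tissue macrophages, had 34, against 227, 308 and 169, and Apoe, a lipid carrier made in bulk by macrophages, had 352, against 1633, 2480 and 1685. Clec7a, a receptor for fungal glucans, had 11, against 130, 102 and 57. Others were not. Arg1, arginase of some activated myeloid cells, had 1859 in tumor 1, against 538, 490 and 194. Spp1, osteopontin, had 79, 508, 160 and 75 in tumors 1 to 4, Mmp12, macrophage elastase, had 71, 184, 59 and 23, and Cd14, a receptor for bacterial lipopolysaccharide, had 783, 522, 655 and 387. Of the 29 neutrophil and macrophage genes at 32 or more, 11 were members, against 2.44% of all 6356 genes. Tumor 1 was the lowest for 19 of the 29 and the highest for 6, whereas it was the lowest for 33.3% of all probe sets. The list mean therefore hid a split, at 0.31 below the 4-tumor mean in tumor 1 on the log2 scale.

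**Figure D2:**
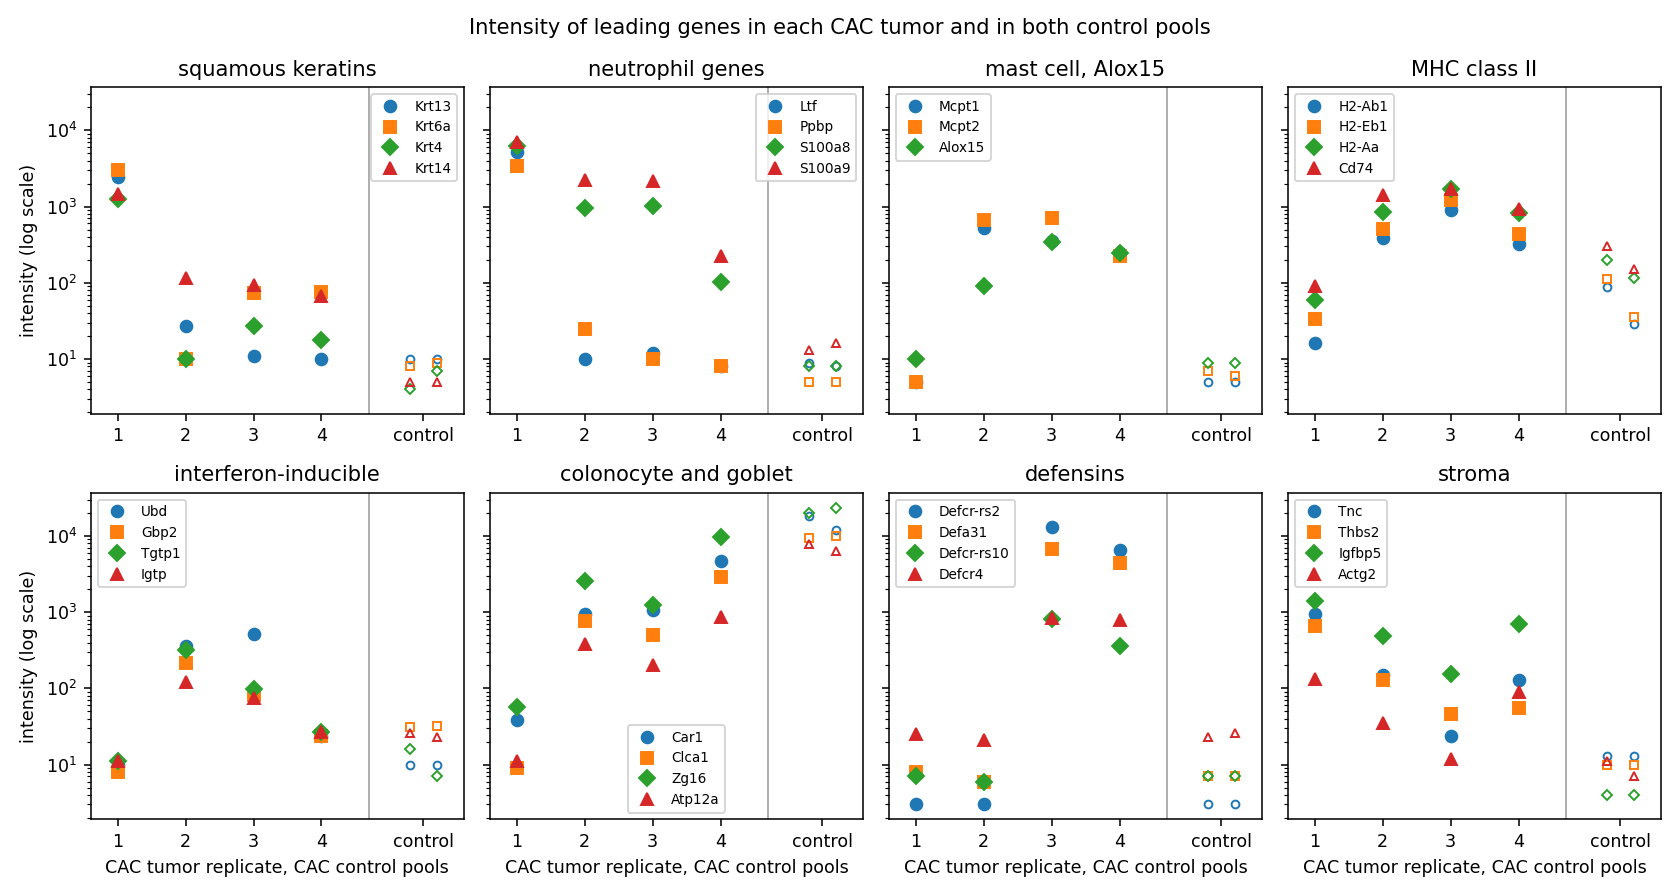
Intensity on a log scale of leading genes (1 probe set each) in CAC tumors 1 to 4 (filled points) and in both CAC control pools (open points), in 8 panels by role. Squamous keratins and neutrophil genes peak in tumor 1, mast cell and MHC class II genes have their minimum there, and the defensins are high in tumors 3 and 4 alone.

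Mucosal mast cell proteases were at the floor in tumor 1. Mcpt1 had 5 in tumor 1, against 529, 353 and 244 in tumors 2, 3 and 4, and 5 in both CAC control pools. Mcpt2 had 5 in tumor 1, against 660, 699 and 222, and 7 and 6 in the pools. Alox15, a lipoxygenase of eosinophils and some macrophages, had 10, against 90, 341 and 249, and was listed at 7 or 8 in every sporadic tumor. All 3 genes of the mast cell and eosinophil list at 32 or more were members, against 2.44% of all genes. Their list mean was 4.25 below the 4-tumor mean in tumor 1. Mcpt4, Cpa3 and Cma1, other mast cell proteases of the list, reached 40 at most in any CAC tumor, in tumor 3. In the sporadic tumors Mcpt2 had 28, 129, 60, 79 and 101, against 5 to 6 in the sporadic control pools, and rose by a log2 of 3.73 ± 0.49 (limma standard error, adjusted p = 0.00112). Mcpt1 rose there by 3.43 ± 0.74 (limma adjusted p = 0.00991), with the lowest of the 5 values, 11, in sporadic tumor 1. Mcpt1 did not pass with all 14 arrays in the limma fit or with the replicate number as a block. With that block Mcpt2 did not pass either (limma adjusted p = 0.073).

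Genes of antigen presentation on MHC class II, the molecules by which macrophages, dendritic cells, B cells and interferon-treated epithelium show peptides to T cells, moved together. H2-Ab1, a beta chain, had 16, 391, 897 and 320 in tumors 1 to 4, against 89 and 29 in the CAC control pools. H2-Eb1 had 34, 503, 1223 and 431, and H2-Aa, an alpha chain, had 60, 861, 1680 and 821. Cd74, the invariant chain that guards the peptide groove, had 90, 1413, 1704 and 921. Tumor 1 was below the other CAC tumors for each of these, and below both control pools. Of the 5 MHC class II genes at 32 or more, 4 were members, against 2.44% of all genes. Of the 6 MHC class I genes, 0 were members, which is near that share. Tumor 1 was the lowest for 5 of the 6, against 33.3% of all probe sets, with a list mean 0.60 below the 4-tumor mean there. In the sporadic tumors Cd74 rose by a log2 of 3.87 ± 0.56 over control (limma adjusted p = 0.00169), and its 5 values ran from 487 to 2215.

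Interferon-inducible genes were low in tumor 1 and mostly highest in tumor 2. Of 22 list genes at 32 or more, 9 were members, against 2.44% of all genes. Tumor 1 was the lowest for 19, against 33.3% of all probe sets, and tumor 2 the highest for 17. Ubd, a ubiquitin-like modifier, had 10, 363, 523 and 24 in tumors 1 to 4, against 10 in both CAC control pools and 8 to 11 in the sporadic tumors. Gbp2, a guanylate-binding GTPase, had 8, 217, 83 and 24. Tgtp1 and Igtp, immunity-related GTPases, had 11, 316, 97 and 27, and 11, 123, 75 and 27. These 4 genes and Psmb9, an immunoproteasome subunit (15, 100, 70 and 32), were high in tumors 2 and 3 and low in tumors 1 and 4. Usp18, a protease that removes the modifier ISG15, had 6 in tumor 1, against 177, 152 and 69, and Irgm2 had 8, against 120, 104 and 77. Without the minimum, 17 of 36 interferon genes were at least 2-fold lower in tumor 1 than in each other CAC tumor, against 1.90% of all genes.

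The promoters of the interferon-inducible and MHC class II members were read for known elements, since these genes varied together. RefSeq promoters (GRCm38.p6, 300 bases each from 250 before to 50 after the start of the gene) were searched on both strands for the interferon-stimulated response element ISRE (GAAA, 2 bases of any kind, GAAA), the interferon-gamma activated site GAS, TTCNNNGAA, and the Y box of MHC class II promoters, CTGATTGG. Of 32851 mouse promoters, 3.44% held the first, 8.30% the second and 4.10% the third. Promoters were at hand for 8 of the 9 interferon members (Usp18 was not matched), and 4 held the ISRE letters, 3 the GAS letters and 1, Psmb9, the Y box letters. Of the 4 MHC class II members, only 2 were read, H2-Aa and H2-Eb1, and both held the Y box letters. H2-Ab1 was not matched and Cd74 was left out of the search, so neither enters this count. The 6 promoters shown carry these matches in capitals, in the order Gbp2 (chr3:142620413-142620712, + strand), Igtp (chr11:58199306-58199605, +), Irgm2 (chr11:58214727-58215026, +), Tgtp1 (chr11:48992197-48992496, -), H2-Aa (chr17:34287774-34288073, -) and H2-Eb1 (chr17:34305617-34305916, +).
Gbp2: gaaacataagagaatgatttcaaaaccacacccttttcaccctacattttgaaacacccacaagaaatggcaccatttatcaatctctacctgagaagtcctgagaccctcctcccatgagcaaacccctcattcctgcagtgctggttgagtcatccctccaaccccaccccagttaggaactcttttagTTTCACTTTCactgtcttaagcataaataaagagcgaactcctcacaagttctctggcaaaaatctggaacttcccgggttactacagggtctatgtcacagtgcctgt
Igtp: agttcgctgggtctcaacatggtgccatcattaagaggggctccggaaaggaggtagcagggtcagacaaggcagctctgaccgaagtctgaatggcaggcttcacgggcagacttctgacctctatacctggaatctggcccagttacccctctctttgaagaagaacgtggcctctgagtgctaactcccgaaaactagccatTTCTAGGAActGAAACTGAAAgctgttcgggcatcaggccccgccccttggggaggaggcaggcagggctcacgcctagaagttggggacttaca
Irgm2: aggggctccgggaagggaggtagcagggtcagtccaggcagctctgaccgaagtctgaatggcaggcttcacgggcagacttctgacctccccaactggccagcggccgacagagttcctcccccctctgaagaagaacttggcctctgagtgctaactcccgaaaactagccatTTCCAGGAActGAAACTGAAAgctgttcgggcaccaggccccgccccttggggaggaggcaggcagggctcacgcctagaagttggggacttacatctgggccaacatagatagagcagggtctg
Tgtp1: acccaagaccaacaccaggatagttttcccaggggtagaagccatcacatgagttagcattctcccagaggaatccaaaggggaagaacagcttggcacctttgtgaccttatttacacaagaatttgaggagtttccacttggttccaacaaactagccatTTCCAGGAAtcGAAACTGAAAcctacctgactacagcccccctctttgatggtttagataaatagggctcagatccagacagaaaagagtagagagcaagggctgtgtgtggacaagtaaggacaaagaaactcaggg
H2-Aa: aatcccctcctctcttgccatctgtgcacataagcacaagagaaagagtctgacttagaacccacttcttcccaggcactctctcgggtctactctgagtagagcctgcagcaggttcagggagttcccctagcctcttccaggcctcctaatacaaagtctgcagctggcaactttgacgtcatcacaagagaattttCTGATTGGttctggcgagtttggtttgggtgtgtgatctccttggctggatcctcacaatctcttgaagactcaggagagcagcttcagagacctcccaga
H2-Eb1: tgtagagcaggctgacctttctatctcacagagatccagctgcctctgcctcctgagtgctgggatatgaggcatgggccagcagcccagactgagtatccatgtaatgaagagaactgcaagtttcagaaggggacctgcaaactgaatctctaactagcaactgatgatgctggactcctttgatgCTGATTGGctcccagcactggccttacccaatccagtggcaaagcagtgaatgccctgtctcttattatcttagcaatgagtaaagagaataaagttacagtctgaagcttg
In Igtp, Irgm2 and Tgtp1, GTPases of the same family, the GAS letters stand 2 bases before the ISRE letters. In Gbp2 the ISRE is read on the opposite strand. A match describes the sequence and says nothing on whether a factor was bound in these tumors.

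Genes of differentiated colon epithelium were mostly highest in tumor 4, and the members among them were mostly low in tumor 1. Clca1, a protein that goblet cells secrete with mucus, had 9, 763, 498 and 2863 in tumors 1 to 4, against 9289 and 9939 in the CAC control pools. Zg16, a lectin of goblet cell granules, had 57, 2556, 1243 and 9619, against 20024 and 23499, and Fcgbp, a mucus protein, had 77, 553, 251 and 1102, against 2641 and 4554. Car1, carbonic anhydrase of surface colonocytes, had 39, 946, 1060 and 4715, against 18534 and 12035. Atp12a, a colonic proton pump, had 11, 377, 204 and 861, against 7913 and 6416. No CAC tumor reached the control level of these 5 genes. Saa1, serum amyloid A made by colon epithelium, differed in that tumors 2, 3 and 4 were alike at 2450, 3593 and 2758, against 34 in tumor 1 and 8325 and 7646 in the pools, although probe sets for Saa genes can share signal.

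Colonocyte genes did not all follow. Ms4a10 had 152 in tumor 1, against 23, 25 and 34, and so was high there. Of 14 colonocyte genes at 32 or more, 4 were members, 8 were lowest in tumor 1 and 9 were highest in tumor 4. Of 11 goblet genes, 3 were members, 5 were lowest in tumor 1 and 10 were highest in tumor 4. Of all genes, 2.44% were members, and 33.3% of all probe sets were lowest in tumor 1. Without the minimum, tumor 4 was at least 2-fold above each other CAC tumor for 10 of 33 colonocyte genes. The same held for 5 of 16 goblet genes, against 0.63% of all genes. Agr2, Spdef, Atoh1 and Spink4 of the goblet list were not lowest in tumor 1, and Spink4, an abundant goblet secretion, had 12009, 8682, 5764 and 12385 and was no member. Car4, which the minimum left out and which was named after its values were seen, had 13, 11, 13 and 181 in tumors 1 to 4, against 13009 and 10280 in the pools. Among the 47 members at least 2-fold higher in CAC control than in CAC tumors, 40 were lowest in tumor 1 and 31 highest in tumor 4. Of all 959 such probe sets, 46.3% were lowest in tumor 1 and 52.8% highest in tumor 4.

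**Figure D3:**
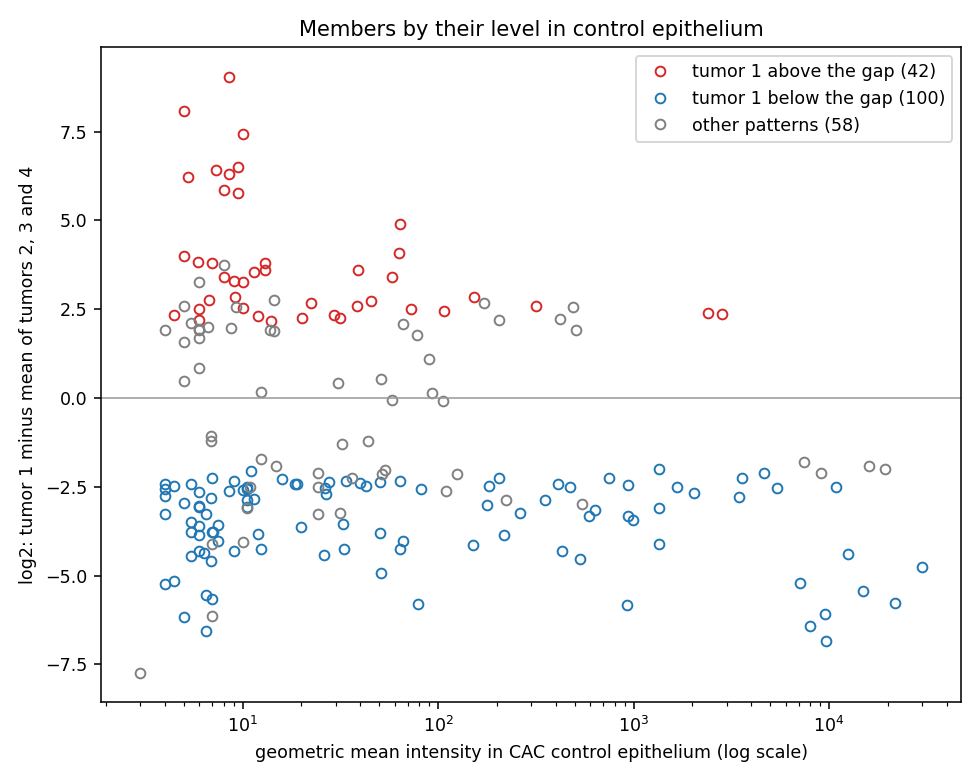
Each of the 200 probe sets by its geometric mean intensity in the 2 CAC control pools (horizontal, log scale) and the log2 difference between tumor 1 and the mean of tumors 2, 3 and 4 (vertical). Probe sets high in tumor 1 alone (42) sit mostly at low control levels, and those low in tumor 1 (100) reach from the floor to the highest control levels.

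A second set of genes low in tumor 1 was near the floor in control epithelium. Of the 100 probe sets low in tumor 1, 35 had a geometric mean under 10 in the CAC control pools, and 34 were under 10 in both pools. Of these 34, 28 rose in the sporadic tumors (limma, adjusted p under 0.05). The background is all 300 probe sets at 32 or more in CAC tumors with a geometric mean under 10 in CAC control. Of those, 86.3% rose, which is near the share of the 34, so the count says nothing particular about the members. In 16 of the 28, tumor 1 was within 2-fold of the CAC control mean. Ptn, pleiotrophin, a secreted growth factor, had 6 in tumor 1, against 278, 343 and 286 in tumors 2, 3 and 4, and 7 in both CAC control pools. In the sporadic tumors Ptn had 393, 956, 911, 1078 and 1247, against 6 in each control pool, a rise of 7.16 ± 0.38 on the log2 scale (limma adjusted p = 9.74e-06). Sox17, a transcription factor of endoderm and endothelium, had 5 in tumor 1, against 144, 326 and 117, and rose in the sporadic tumors by 6.56 ± 0.44 (limma adjusted p = 3.65e-05). Pycr1, an enzyme of proline synthesis, had 14, against 298, 282 and 259. Tumors 2, 3 and 4 were close to each other for Ptn and Pycr1, with SDs of 0.16 and 0.10 over those 3 arrays.

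Members of the Wnt target and stem list were lower in tumor 1 without being near the floor. Mt4, a metallothionein, had 348 in tumor 1, against 2263, 2428 and 2851, and 11 and 12 in the CAC control pools. Spock2, a matrix proteoglycan, had 134, 1658, 681 and 429, against 4 in both pools. The list was drawn up with earlier results of these data known, so it is not independent evidence of a direction. In the sporadic tumors Mt4 rose by a log2 of 8.89 ± 0.27 (limma adjusted p = 3.69e-07) and Spock2 by 9.57 ± 0.24 (limma adjusted p = 1.08e-07). These 2 were the only members among 20 Wnt genes at 32 or more (10%), against 2.44% of all genes. Of 23 measured, 7 were at least 2-fold lower in tumor 1 than in each other CAC tumor (30.4%), against 1.90% of all genes. Axin2, a feedback target of Wnt signaling that was no member, had 433, 653, 429 and 342 in tumors 1 to 4, against 32 and 36 in the pools. Lgr5, a stem cell receptor, had 404, 274, 70 and 127.

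Alpha-defensins, the peptides of small-intestinal Paneth cells, held the highest SDs of all. Defcr-rs2 had 3, 3, 13064 and 6542 in tumors 1 to 4 and 3 on every other array of the series. Defa31 had 8, 6, 6683 and 4455, Defcr-rs10 had 7, 6, 817 and 360, and Defcr4 had 25, 21, 839 and 783. These 4 were high in tumors 3 and 4 and at the level of the controls in tumors 1 and 2. Defa29 had 9, 13, 265 and 38 and was high in tumor 3. By contrast, Defa5 had 643, 2662, 5652 and 4440, present in all CAC tumors, and rose in the sporadic tumors by a log2 of 7.64 ± 0.71 (limma adjusted p = 0.000205). The genes of this family are near-identical copies, so the share of each in these signals is uncertain. Lyz1, lysozyme of Paneth cells, had 22841 to 23544 in tumors 1, 2 and 3 and 18698 in tumor 4 on 1 probe set, against 124 and 22 in the pools, so the defensin split was not shared by it.

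Immunoglobulin genes, made by plasma cells, did not vary as 1 group. Ighg1 had 819 in tumor 1, against 24, 13 and 9 in the other CAC tumors and 6 to 7 in the sporadic tumors. Iglv1, of lambda light chains, had 39 in tumor 1, against 502, 563 and 369, and 5 to 17 in the sporadic tumors. Igh-1a, another heavy chain entry and a member, did not follow Ighg1, with 42, 167, 141 and 29. Jchain, which joins secreted IgA and IgM and was named after its values were seen, had 344, 1333, 2299 and 1524. Probe sets for antibody genes cover similar segments, and which transcripts each one measured is uncertain.

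Fibroblast and smooth muscle genes were mostly lowest in tumor 3, and fibroblast genes mostly highest in tumor 1. Tnc, tenascin C of remodeled matrix, had 941, 148, 24 and 130 in tumors 1 to 4, against 13 in both CAC control pools. Thbs2, a matrix thrombospondin, had 659, 129, 46 and 55, and Mmp13, a collagenase, had 1879, 700, 305 and 324. Igfbp5, a binding protein for insulin-like growth factors, had 1398, 483, 153 and 690. Actg2, the actin of visceral smooth muscle, had 131, 35, 12 and 91, and Cald1, caldesmon of contractile cells, had 111, 99, 19 and 122. Tumor 3 lay below the others for Igfbp5, Actg2 and Cald1. Of 36 fibroblast and matrix genes at 32 or more, 6 were members, against 2.44% of all genes, and 27 were lowest in tumor 3. Tumor 1 was the highest for 25 of the 36, against 26.8% of all probe sets. Of 11 smooth muscle genes, 2 were members, 9 were lowest in tumor 3, 5 were highest in tumor 1 and 6 highest in tumor 4. Without the minimum, tumor 3 was at least 2-fold below each other CAC tumor for 7 of 60 fibroblast genes. The same held for 2 of 24 smooth muscle genes, against 0.36% of all genes. Tumor 4 was at least 2-fold above each other CAC tumor for 0 of those 24, against 0.63%. The sporadic tumors spread widely in Tnc too, at 601, 218, 77, 35 and 30, and Tnc did not pass there (log2 2.92 ± 1.05, limma adjusted p = 0.0628), although it passed without sporadic tumor 5 or with low probe sets left out (lowest limma adjusted p 0.0158).

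**Figure D4:**
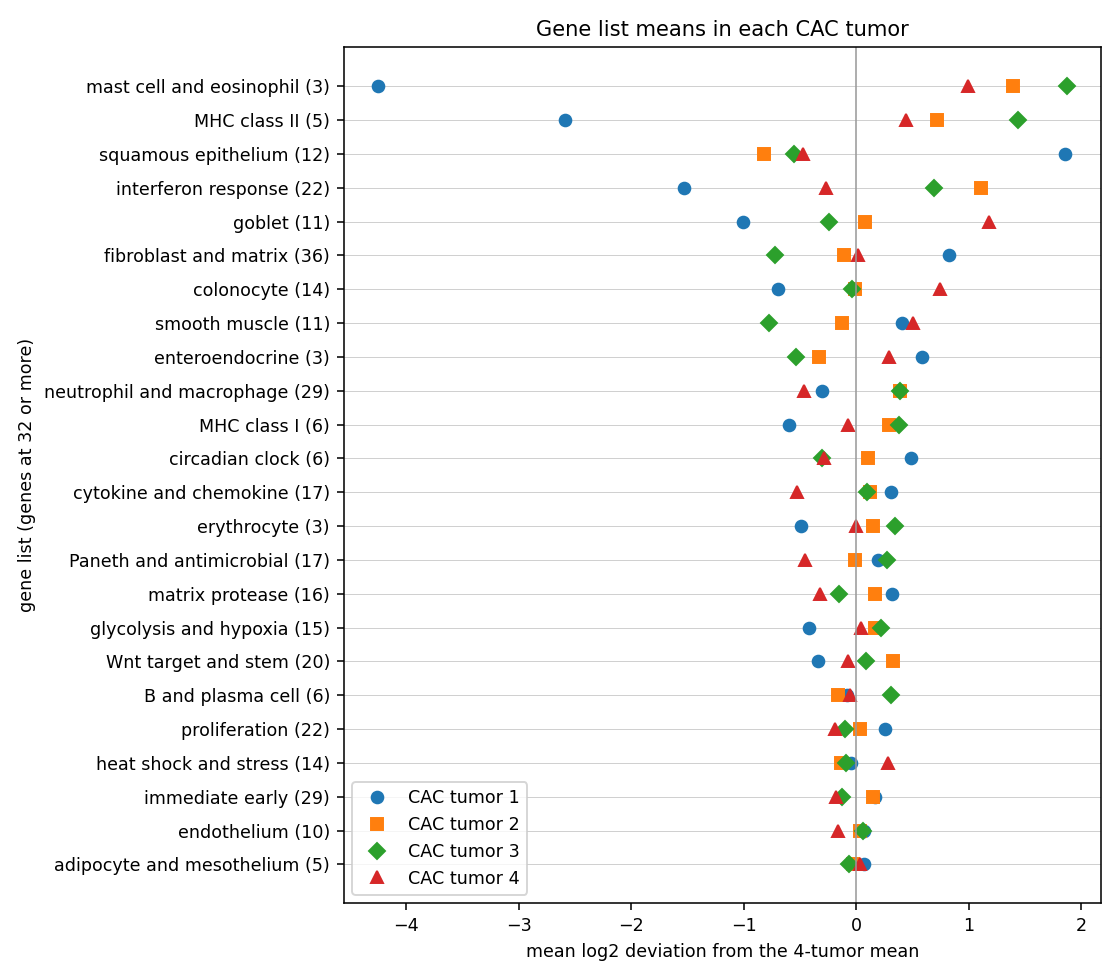
Mean log2 deviation of each gene list from its 4-tumor mean in CAC tumors 1 to 4 (points), for lists with 3 or more genes at 32 or more (number in brackets), ordered by their SD. The mast cell, MHC class II and interferon lists are lowest in tumor 1 and the squamous list is highest there, while the means of lists such as endothelium and proliferation lie close to 0 in all tumors.

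Among lists not counted above, 8 of 17 Paneth and antimicrobial genes, 3 of 17 cytokine and chemokine genes and 3 of 16 matrix protease genes were members. So were 2 of 6 B and plasma cell genes, and each of these shares was above the 2.44% over all genes. Lists such as proliferation and immediate early had no members, which in lists of this size is near that share. Of 22 proliferation genes and 29 immediate early genes, 0 were members. The SDs of their list means were 0.19 and 0.18 on the log2 scale, and the median SDs of their genes were 0.28 and 0.40, against 0.25 for all probe sets at 32 or more. Tumor 1 had the highest value for 15 of the 22 proliferation genes, against 26.8% of all probe sets. The endothelium list mean had an SD of 0.11, but its 10 genes had a median SD of 0.59, since they moved in different directions: 7 were highest in tumor 1, whereas Sox17, a member, was far lower there. T and NK cell genes could not be judged, since 1 of 25 reached 32.

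Tumor 4 had a small group of its own, below the share of this pattern over all probe sets. Hspa1b, an inducible heat shock protein, had 213, 64, 169 and 1015 in tumors 1 to 4, and 111 to 2889 in the sporadic tumors. Klk1, a kallikrein of colon epithelium, had 259, 802, 398 and 3464, against 18425 and 20342 in the CAC control pools, and fell by 5.90 ± 0.29 on the log2 scale in the sporadic tumors (limma adjusted p = 6.93e-06). Sycn, a protein of secretory granules, was high in tumors 2 and 4, with 11, 61, 15 and 117 in tumors 1 to 4, against 8064 and 10328 in the pools.

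Eif2s3y, a translation factor gene on the Y chromosome, took a low and a high level. It had 14, 283, 276 and 14 in tumors 1 to 4, 271 and 184 in the CAC control pools, and 234, 253, 14, 254 and 299 in the sporadic tumors. All animals are labeled male. Ddx3y, another Y-linked gene, had 109, 73, 60 and 66 in CAC tumors 1 to 4 and 88 in sporadic tumor 3, and its values did not split as those of Eif2s3y did. Xist, the RNA that coats the inactive X chromosome of females, was at 4 to 7 on every array. Ddx3y and Xist were looked at after the values of Eif2s3y were seen.

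The sporadic arrays, which the choice of members did not use, gave a test of change between tumor and control. Of the 200 members, 91 rose and 47 fell in the sporadic tumors (limma, Benjamini-Hochberg over 22626 probe sets, adjusted p under 0.05), against 16.8% higher and 25.5% lower among all probe sets. Among the 9773 probe sets that met the minimum, 32.9% were higher and 25.1% lower. Members high in tumor 1 alone included 22 that rose, 8 that fell and 12 that did not pass. Some falls were differences of whole-number values close to the floor. An Ighg1 probe set had 9 in each sporadic tumor, against 10, 11 and 11 in the control pools. Such calls also enter the shares over all probe sets. Members low in tumor 1 included 51 that rose, 28 that fell and 21 that did not pass, and of the 8 high in tumors 2 and 3 only 1 passed, which fell. The median log2 change of the members was 1.14, against -0.04 for all probe sets and 0.11 for the 9773 that met the minimum. The largest falls were in Sycn (-7.75 ± 1.10, limma adjusted p = 0.00156), Mep1b, a brush border protease (-6.29 ± 0.21, limma adjusted p = 6.5e-07), and Atp12a (-5.97 ± 0.68, limma adjusted p = 0.000586). S100a8 rose by 6.28 ± 0.52 (limma adjusted p = 0.000114), with 218, 879, 998, 506 and 384 in the sporadic tumors, against 6 to 7 in their controls. Ltf and Krt13 did not pass and were at 13 or less on every sporadic array.

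Without tumor 1, the spread fell away for some groups and stayed for others. Of the MHC class II genes, 0 were among the 200 most variable of tumors 2, 3 and 4, against 4 with tumor 1 included, and of the squamous genes 2, against 5. Of the interferon genes 8 were, against 9, of the goblet genes 5, against 3, and of the smooth muscle genes 5, against 2. The SD of the list mean without and with tumor 1 was 0.44 and 2.86 for the mast cell and eosinophil genes, 0.26 and 1.24 for the squamous genes, 0.74 and 1.17 for the interferon genes, and 0.75 and 0.91 for the goblet genes. Among the 200 most variable of those 3 tumors, 63 probe sets were high in tumor 4 alone, 50 in tumors 2 and 3, 35 in tumors 2 and 4, and 22 in tumors 3 and 4. The defensin, Ubd, S100a8 and Klk1 differences did not rest on tumor 1, as their SDs over tumors 2, 3 and 4 show: 6.71 for Defcr-rs2, 2.43 for Ubd, 1.89 for S100a8 and 1.59 for Klk1.

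Spread among tumors was partly shared between the models. Of the 200 members, 38 had an SD of at least 1.2055 over the 5 sporadic tumors. Of the 143 members at 32 or more in the sporadic tumors, 28 did, against 0.894% of the 9955 probe sets at 32 or more there. The median SD of all 200 members over the sporadic tumors, with no minimum there, was 0.76, against 0.23 for those 9955. Mmp13 had an SD of 2.43 over the sporadic tumors and 1.23 over the CAC tumors, and Hspa1b also varied in both models. Ltf, Krt13 and the defensins Defcr-rs2 and Defa31 had SDs of 0.29 or less over the sporadic tumors, where they were near the floor. The MHC class II list mean had an SD of 1.78 over the CAC tumors, or 0.52 without tumor 1, and 0.86 over the sporadic tumors.

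**Figure D5:**
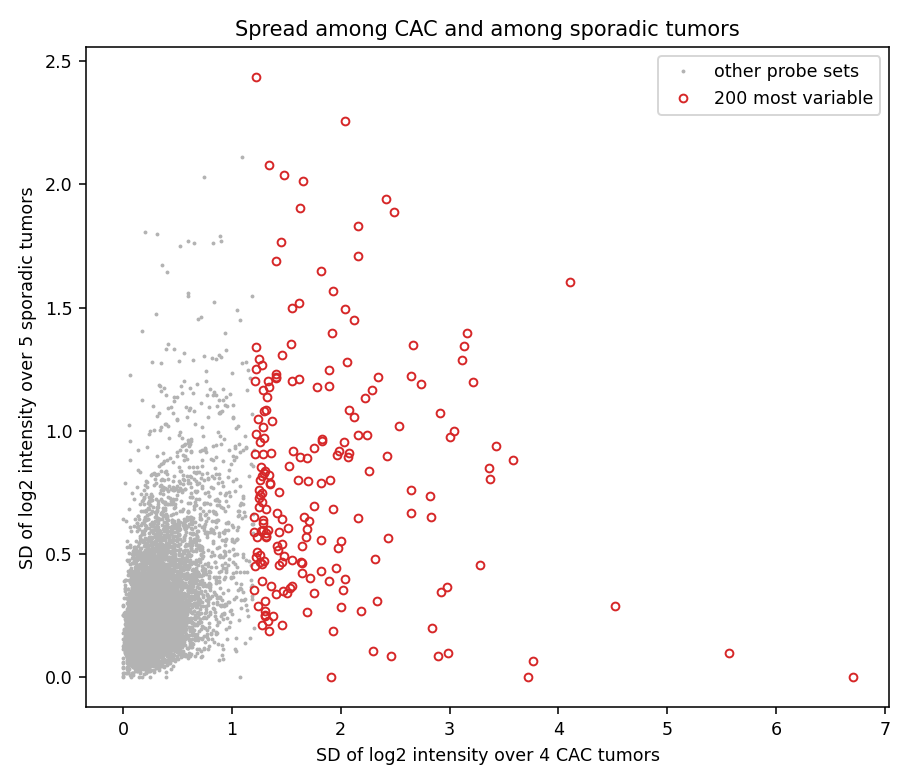
SD of log2 intensity over the 4 CAC tumors (horizontal) and over the 5 sporadic tumors (vertical) for the 9773 probe sets at 32 or more in the CAC tumors, with the 200 most variable as open circles. Members reach from 0 to above 2 on the vertical axis, and the 2 with the highest SD over the CAC tumors lie near 0 on it.

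Control epithelium placed the members at both ends of its range. Under 10 in the CAC control pools were 76 members, against 3.07% of the 9773 probe sets. The CAC tumor mean was at least 2-fold above control for 127 members, against 19.5%, and at least 2-fold below it for 47, against 9.81%. Low values bear on the ranking, since 41 members had at least 1 CAC tumor under 10, against 0.42% of all 9773 probe sets. That 0.42% is the same 41 probe sets. A value under 10 with a geometric mean of 32 or more forces a large SD. The contrast therefore follows from how members were chosen, and nothing is concluded from it. In 33 of the 41 members, tumor 1 was under 10. Intensities are whole numbers, so a value of 3 or 5 marks the floor and folds over it depend on it.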

How the data were processed

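Total RNA of 14 samples was hybridized to 1-colour Affymetrix arrays, per the labels' protocols. The deposited table holds 1 intensity per probe set and array; per the submitters' processing notes, the authors used GCRMA, and the sources used here do not give its version. Values are linear and rounded to whole numbers. The authors' fold change (a ratio) and corrected p-value for tumor against control are in the deposited table and were not used here. No detection calls were used here, and the number of arrays limits the precision.

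After removal of 64 control probe sets, log2 was taken without an offset. Members were the 200 highest SDs over the 4 CAC tumors among probe sets with a geometric mean of 32 or more. The members and the 27 gene lists were chosen with earlier results of these data known. A list gene with several probe sets was given by the one of highest mean, and each member gene named by its most variable probe set. Gene symbols follow the RefSeq gene table where they matched: 16795 probe sets carried a current symbol, 3679 an older one that was updated, and 697 a symbol found in neither form. For 20 probe sets the listed symbol read as a date, and these were left unnamed.

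Sporadic tumors and controls were compared with limma 3.58.1 (R 4.3.3; lmFit, eBayes, 6 residual and 0.448 prior degrees of freedom) on the 8 sporadic arrays alone, with Benjamini-Hochberg adjustment over all 22626 probe sets and a threshold of 0.05. CAC arrays did not enter this fit. The test was run on simulated data first. Errors after ± are limma standard errors of the log2 difference. Under 10 is called near the floor.

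Named genes were the 25 with the highest SD, up to 4 member genes of each list, the 5 largest rises and falls in the sporadic comparison and the 3 probe sets on either side of rank 200. This gave 65 genes before the last part. Pycr1, Clec7a, C1qc, Csf1r, Arg1, Spp1, Cd14, Igh-1a, Agr2, Spdef, Atoh1, Lrg1, Reg3g, Igtp, Irgm2, Psmb9, Spink4, Axin2, Lgr5, Lyz1, Epcam, Krt5, Krt6b, Car4, Jchain, Ddx3y and Xist lie outside that rule and were chosen after their values were seen, as were list genes given only for a level at the floor. Csf3r was added in the same way. The fit has no replicate block. Alternatives were other minimums, an offset, other measures of spread, quantile normalization, other eBayes settings, a filter, the block, and each array left out.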

Additional observations from a re-analysis of the deposited data

Results flagged for a closer look

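In each case here, 1 tumor lay far from the others of its group, judged by its gap to the nearest tumor as a share of the whole range on the log2 scale. Chance alone marks about 1 in 20 such groups. Looked at were 56 list and array measures, a count that takes each tumor group separately, and 65 named genes in both tumor groups. The named genes were chosen for a high SD over the CAC tumors, so those marked among the CAC tumors cannot be read against that rate. Marked were 5 of the measures, 8 genes among the CAC tumors and 8 among the sporadic tumors.

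Tumor 1 was the one apart in 9 of the 11 list means and genes marked among the CAC tumors. The mean of the squamous epithelium list was 1.85 above the 4-tumor mean in tumor 1, and that of the mast cell and eosinophil list was -4.25 there. Ltf was high in tumor 1 at 5173. Low in tumor 1 were Saa1 at 34, Mcpt1 at 5, Smpx (a small muscle protein that other CAC tumors held at 541 to 1078) at 13, Ptn at 6, Mt4 at 348 and Iglv1 at 39. In CAC tumor 3, Cald1 was low at 19, and in CAC tumor 4 the endothelium list mean was lowest at -0.16.

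Sporadic tumor 1 was low for the mast cell and eosinophil list mean (-1.18), Mcpt1 (11), Ptn (393) and Krt14 (19), and high for Actg2 (62). Sporadic tumor 2 was high for the neutrophil and macrophage list mean (0.76), and sporadic tumor 3 was low for Eif2s3y (14). Ighg1 at 6 in sporadic tumor 1, Krt13 at 9 in sporadic tumor 2 and Defa31 at 7 in sporadic tumor 4 differ from the other sporadic tumors by 1 unit near the floor.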

How the results depend on the processing

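Of the 200 probe sets, 119 stayed among the 200 most variable with a minimum of 64, 109 with the median absolute deviation in place of the SD, and 78 to 171 with 1 CAC tumor left out, the lowest without tumor 1. The SD at rank 200 was 1.34 with a minimum of 16, 0.984 with a minimum of 64, 1.01 with an offset of 16 before log2 and 1.09 without the less specific probe sets, and it ran from 0.849 to 1.36 with 1 CAC tumor left out. The median SD of the list means was 0.375 and ran from 0.347 to 0.486 with 1 CAC tumor left out. With the replicate number as a block, 59 members rose and 33 fell in the sporadic tumors, against 91 and 47 without it. Same-numbered arrays correlated at 0.07, 0.05 and -0.08 in their deviations from the group means. In the other 63 comparisons of these main results, counts stayed within 1.5 times and SDs within 0.05 of the value reported. For single lists and named genes, 1019 comparisons kept their value within 1.5 times or kept their call. In 55 a list count or list SD moved further, in 67 a limma call was lost and in 14 a limma call was gained. The values of tumor 1 apart (135 to 146 of 200) and of members at least 2-fold above CAC control (120 to 124) under other minimums, the offset and quantile normalization were added after seeing the data. Of 42 named genes that passed in the sporadic tumors, 24 passed in every alternative run, 14 did not pass with the block and 8 did not pass with some array left out. Krt6a, Krt4, Il1r2, Cxcl1, H2-Eb1 and Mmp13 are among these 8. Of 23 that did not pass, 6 passed in some alternative: Defcr-rs10, Car1, Tgtp1, Tnc, Col3a1 and Ndrg1. No named gene that passed in the main or an alternative fit had the opposite sign between those 2 fits. Sign changes of genes that passed in neither fit were not counted. The cause of these shifts was not tested. Signal near the floor limits the genes that are high in 1 tumor, since the minimum leaves most of them out.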

Other observations

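Below the minimum of 32, 140 probe sets varied with an SD at least that of rank 200, and 47 of them reached 100 in some CAC tumor. The highest value lay in tumor 1 for 68, in tumor 3 for 39, in tumor 4 for 24 and in tumor 2 for 9. The genes named here were chosen after their values were seen. In tumor 1, further genes of stratified or glandular epithelium stood alone. Psca, a surface protein of stratified and urothelial cells, had 1224 in tumor 1 and 6 in each of tumors 2, 3 and 4, and Sprr2d and Sprr3, of the cornified envelope, had 231 and 166, against 5 in each other CAC tumor. Scel, sciellin of the same envelope, had 166, against 8. Aldh3a1, an aldehyde dehydrogenase abundant in cornea and squamous mucosa, had 219, against 7. Cyp2f2, an airway cytochrome, had 1293, against 4, 5 and 5, and was not low in the CAC control pools, at 216 and 247.

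Some neutrophil and myeloid genes followed Ltf in tumor 1. Ngp, a neutrophil granule protein, had 271 in tumor 1, against 6, 7 and 6, Mmp8, neutrophil collagenase, had 154, against 5, and Chil3, a chitinase-like lectin of myeloid cells, had 404, against 5. Camp, another granule protein, was at 5 on every CAC array. Mmp3, a stromelysin of fibroblasts, had 524, 52, 5 and 6 in tumors 1 to 4.

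The other tumors had fewer such genes. In tumor 4, Hao2, a hydroxyacid oxidase, had 157, against 8, 15 and 8 in tumors 1, 2 and 3, and 2333 and 2007 in the CAC control pools. Ccn3 had 293 there, against 7 in each other CAC tumor, and 94 and 175 in the pools. In tumor 3, Mdk, midkine, a growth factor of the same family as Ptn, had 186, against 9, 21 and 13 in tumors 1, 2 and 4. Ighm had 124 in tumor 3 on 1 probe set, against 3, 4 and 18.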
